A study of Mus musculus with 4 samples.

Results

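The transcripts described here are those of the adult globin genes and of 3 enzymes of heme synthesis in the mouse heart. They were 9 genes chosen by symbol from 23282 deposited rows: the α-globin genes Hba-a1 and Hba-a2, the β-globin genes Hbb-bs, Hbb-bt, Hbb-b1 and Hbb-b2, and the enzyme genes Alas2, Alad and Fech. All 9 had reads in all 4 heart libraries. The choice was made with their values known, so the differences below describe these libraries and support nothing by themselves. In the library of the cancer exercise group the globin genes stood between 4.92 and 9.87 times their level in the cancer control group, and together they took 37.3% of all reads there against 7.86% to 8.76% in the other libraries. This sum may hold reads counted in more than 1 row. With Hbb-b1 and Hbb-b2 left out of both the globin reads and the total, the share was 31.1% against 6.29% to 7.07%.

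Hemoglobin is a tetramer of a pair of α chains and a pair of β chains, each of which carries a heme. Its genes are transcribed at a very high level in erythroid cells, and young red cells, or reticulocytes, still carry these mRNAs after the nucleus is gone. Heme is built from glycine and succinyl-CoA in a chain of enzymes that starts in the mitochondrion, passes through the cytosol and ends in the mitochondrion, where ferrochelatase places iron in the ring. Its first enzyme exists in a form used by all cells, Alas1, and an erythroid form, Alas2. A heart holds blood, and cardiomyocytes themselves make heme for myoglobin and the respiratory chain.

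The study asked how high intensity aerobic exercise changes gene expression in mice with and without cancer. CDF1 mice, the first-generation cross of BALB/c and DBA/2, were used in all groups, and the labels give the tissue as heart and the age as postnatal day 28. That age cannot be the one at which the hearts were taken, because the methods have the mice near it on arrival and killed weeks later. The normal control group, E(−)T(−), had neither exercise nor tumor. The normal exercise group, E(+)T(−), ran on a treadmill at high intensity, the cancer control group, E(−)T(+), received CT26 colorectal carcinoma cells through the tail vein, and the cancer exercise group, E(+)T(+), received these cells and ran. The design text names 10 mice per group, but each group is 1 heart library, and the number of animals behind a heart library is not given in the sources used here. The animals were killed by exsanguination, according to the methods, and how much blood remained in each heart was not measured.

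The QuantSeq method sequences only the 3′ end of each mRNA, and read numbers therefore do not scale with transcript length. Levels are the deposited values, log2(normalized read count + 1), and differences are log2 fold changes between these values. Whole reads were recovered from the deposited values, and the 4 libraries held 6595417, 8477144, 9532859 and 11545977 of them in the order above. Intervals are 95% Clopper-Pearson intervals from these reads. These leave out everything but counting error, and PCR copies of a molecule are counted as separate reads. There is 1 library per group, so no difference has a replicate check and no p-value is given. Differences with exercise alone set E(+)T(−) against E(−)T(−), those with exercise under tumor E(+)T(+) against E(−)T(+), those with tumor alone E(−)T(+) against E(−)T(−), and those with tumor under exercise E(+)T(+) against E(+)T(−). Where 4 values follow one another with no group named, they belong to E(−)T(−), E(+)T(−), E(−)T(+) and E(+)T(+). A gene counts as past 2-fold if its fold change is 2 or more and either library has 4 or more normalized reads of it. The heart label was checked with 9 cardiomyocyte genes, which took 62659 to 65101 of each 1000000 reads outside the globin genes. None of the 9 was past 2-fold in any comparison, where 12.3%, 19.4%, 27.6% and 23% of all genes were, in the order above. With tumor alone, their log2 fold changes ran from −0.85 to 0.84.

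The first genes to see are the α-globin pair, because their mRNAs are close to identical. In GRCm38, Hba-a1 lies at chr11:32283672-32284486 and Hba-a2 at chr11:32296492-32297310, both on the plus strand and with 3 exons. Their coding sequences of 429 bases differ at 1 base, which lies in the last 120 coding bases in exon 3, at chr11:32284272-32284391 for Hba-a1 and chr11:32297089-32297208 for Hba-a2. These stretches, from GENCODE M21, are shown because they are where a 3′ library has to tell the genes apart, and the capital marks the base that differs:
Hba-a1: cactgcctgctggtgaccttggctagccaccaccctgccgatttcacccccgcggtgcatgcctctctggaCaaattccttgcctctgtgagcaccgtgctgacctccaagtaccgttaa
Hba-a2: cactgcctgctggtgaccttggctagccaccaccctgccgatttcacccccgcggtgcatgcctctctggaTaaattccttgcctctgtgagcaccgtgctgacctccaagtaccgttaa
Of the 226 windows of 75 bases in the last 300 bases of the Hba-a1 transcript, 66.8% also occur in the Hba-a2 transcript, and 59.7% of those of Hba-a2 occur in Hba-a1. A read from such a window can be placed on either gene, so the division of reads within the pair is uncertain.

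Hba-a1 was the most abundant globin row in every library. Its level was 18.48 in the normal control group, 18.41 in the normal exercise group, 18.46 in the cancer control group and 21.16 in the cancer exercise group, on 319640, 385083, 409120 and 2148538 reads. The first 3 libraries lay within 0.07 of each other on the log2 scale, and the cancer exercise group stood apart from them. With exercise under tumor, the log2 fold change was 2.70 (95% interval 2.70 to 2.71), a 6.51-fold difference, while with exercise alone it was −0.07 (−0.08 to −0.07). Hba-a1 was the gene with the second most reads in the other 3 libraries and the one with the most reads in the cancer exercise group.

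Hba-a2, the other adult α-globin gene, followed the same order at a lower level. Its level was 13.86, 13.85 and 13.76 in the normal control group, the normal exercise group and the cancer control group, and 16.06 in the cancer exercise group. The cancer exercise group was again the only library apart from the rest, although the difference was smaller than that of Hba-a1. The log2 fold change with exercise under tumor was 2.30 (2.27 to 2.32), whose interval lies below that of Hba-a1. Without tumor the log2 fold change with exercise was −0.01 (−0.04 to 0.03).

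The β-globin genes Hbb-bs and Hbb-bt lie at chr7:103826523-103827928 and chr7:103812524-103813923 on the minus strand. Their coding sequences of 444 bases also differ at 1 base, again within the last 120 coding bases in exon 3 of 3, at chr7:103826665-103826784 and chr7:103812656-103812775. The same stretches are shown for this pair, with the differing base in capitals:
Hbb-bs: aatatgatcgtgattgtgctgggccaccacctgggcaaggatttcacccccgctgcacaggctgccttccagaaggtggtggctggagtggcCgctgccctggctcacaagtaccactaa
Hbb-bt: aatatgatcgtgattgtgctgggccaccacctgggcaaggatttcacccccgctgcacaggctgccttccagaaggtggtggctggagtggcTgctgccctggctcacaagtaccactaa
Here 29.6% of the windows of Hbb-bs and 29.2% of those of Hbb-bt are shared by the pair, less than for the α-globin genes. The last 300 bases of these transcripts therefore differ at more than the marked base. These sequences are of the C57BL/6J reference, and the mice were of another strain. Hbb-b1 and Hbb-b2 are the names of the adult β-globin genes on another haplotype of this locus. Which haplotype these mice carry was not tested, so the β rows need not each stand for a separate expressed gene. The differing base and the shared windows are those of the reference and may not hold for the mRNAs of these mice.

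Hbb-bs had a level of 16.75 in the normal control group, 16.76 in the normal exercise group, 16.83 in the cancer control group and 19.75 in the cancer exercise group. Hbb-bt had 15.03, 15.00, 14.85 and 18.09 in the same order. Both were high in the cancer exercise group and nearly level in the other libraries. With exercise under tumor, the log2 fold change of Hbb-bs was 2.92 (2.91 to 2.93), and that of Hbb-bt was 3.24 (3.22 to 3.25). Each is larger than the value of either α-globin gene. With exercise alone, they were 0.01, with an interval that includes 0, and −0.03 (−0.05 to −0.01).

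The rows named Hbb-b1 and Hbb-b2 followed Hbb-bs and Hbb-bt closely. Hbb-b1 had between 97.1 and 98.3 reads for each 100 reads of Hbb-bs, and Hbb-b2 had between 89.8 and 94.5 for each 100 reads of Hbb-bt, over the 4 libraries. Whether the same reads were counted in both rows of a pair was not tested, and these rows are not independent of Hbb-bs and Hbb-bt. The levels of Hbb-b1 were 16.71, 16.72, 16.79 and 19.72, and those of Hbb-b2 were 14.88, 14.84, 14.71 and 18.01. They too were set apart in the cancer exercise group, with log2 fold changes of 2.93 and 3.30 with exercise under tumor.

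**Figure D1:**
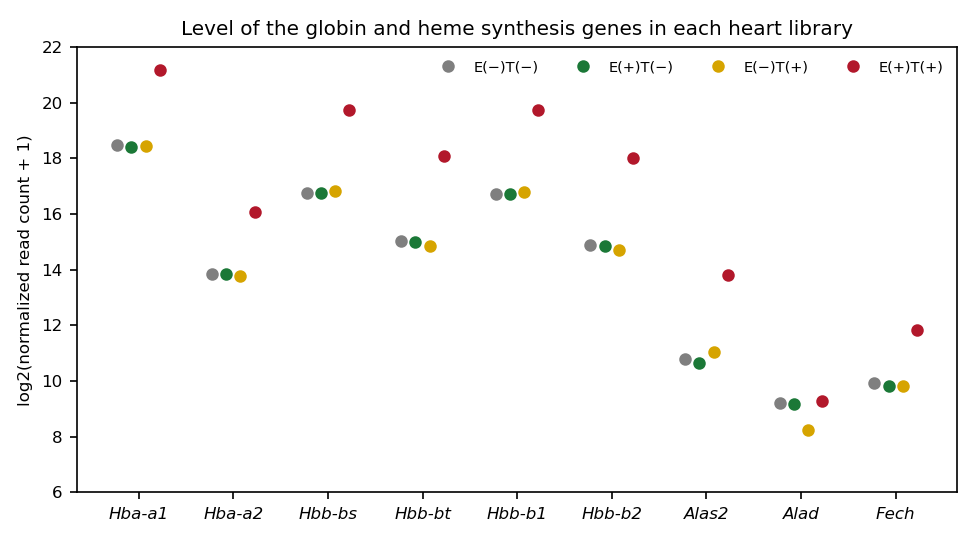
The level of each of the 9 genes, as log2(normalized read count + 1), in the 4 heart libraries, with 1 point per library. For 8 genes the point of the cancer exercise group stands above the other 3, which lie close together, while for Alad the point of the cancer control group stands 0.97 below that of the normal control group and the other 3 are close.

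Counted over the whole list, 9 of 9 genes were higher by 2-fold or more with exercise under tumor, where 9.39% of the 14363 genes that passed the count minimum were higher and 10% were lower, 19.4% in all. The median log2 fold change of the 9 was 2.75, against −0.01 over all genes. The order of the fold changes put Hbb-b2 at rank 69 and Alad at rank 1213 from the top of 14357 symbols, with Hba-a1 at rank 187, so that other genes differed more. With exercise alone, 0 of 9 genes were past 2-fold, where 12.3% of all genes were (5.88% higher and 6.4% lower), and their log2 fold changes ran from −0.16 to 0.01. With tumor alone, 0 of 9 were past 2-fold, where 27.6% of all genes were (14.6% higher and 13.1% lower). With tumor under exercise, 8 of 9 were higher by 2-fold or more, where 12% of all genes were higher, 11.1% lower and 23% either. The 4 comparisons share libraries, so these counts are not independent of one another. The split of all genes depended on the scaling: with reads scaled to the library total, 3.81% were higher and 25.6% lower with exercise under tumor, 5.62% and 35.3% with tumor under exercise, and 12.3% and 17.0% with tumor alone.

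As a share of the library, the 6 globin rows took 8.76% of the reads in the normal control group, 8.40% in the normal exercise group, 7.86% in the cancer control group and 37.3% in the cancer exercise group. With Hbb-b1 and Hbb-b2 left out of both the globin reads and the total, the shares were 7.07%, 6.73%, 6.29% and 31.1%. Hba-a1 alone took 4.85%, 4.54%, 4.29% and 18.6%. In the cancer exercise group the α rows took 19.2% of the library, Hbb-bs with Hbb-bt 9.18% and Hbb-b1 with Hbb-b2 8.94%. The 3 heme enzymes took far less, between 0.0398% and 0.0443% in the other libraries and 0.147% in the cancer exercise group.

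**Figure D2:**
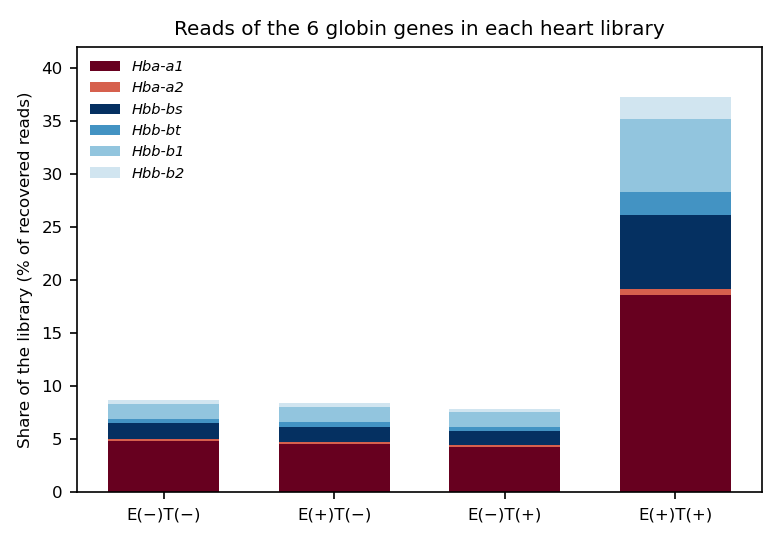
Stacked bars of the percent of recovered reads taken by each of the 6 globin rows in each heart library, on an axis that starts at 0. The bars reach 8.76%, 8.40% and 7.86% in the normal control group, the normal exercise group and the cancer control group, and 37.3% in the cancer exercise group, with Hba-a1 the largest part of each.

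Proportions among the globin genes can be read within 1 library, without any scaling between libraries. The α genes made up 72.6% of the reads of Hba-a1, Hba-a2, Hbb-bs and Hbb-bt in the normal control group, 71.6% in the normal exercise group and 72.0% in the cancer control group, and 67.6% in the cancer exercise group. The last of these was thus the lowest, with a counting interval of 67.5% to 67.6%. With Hbb-b1 and Hbb-b2 also counted, the α share was 57.6%, 56.4%, 56.7% and 51.4%, again lowest in the cancer exercise group. The size of the share therefore depends on how these rows are treated. Within the α pair, Hba-a2 made up 3.89%, 4.07% and 3.71% of the reads in the first 3 libraries and 2.83% (2.81% to 2.85%) in the cancer exercise group. Within the β pair, Hbb-bt made up 23.2%, 22.8%, 20.3% and 24.1% of the reads of Hbb-bs and Hbb-bt. Here the library that stood lowest was the cancer control group, not the cancer exercise group. These shares rest on rows that share sequence, and how the counting placed such reads was not tested.

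**Figure D3:**
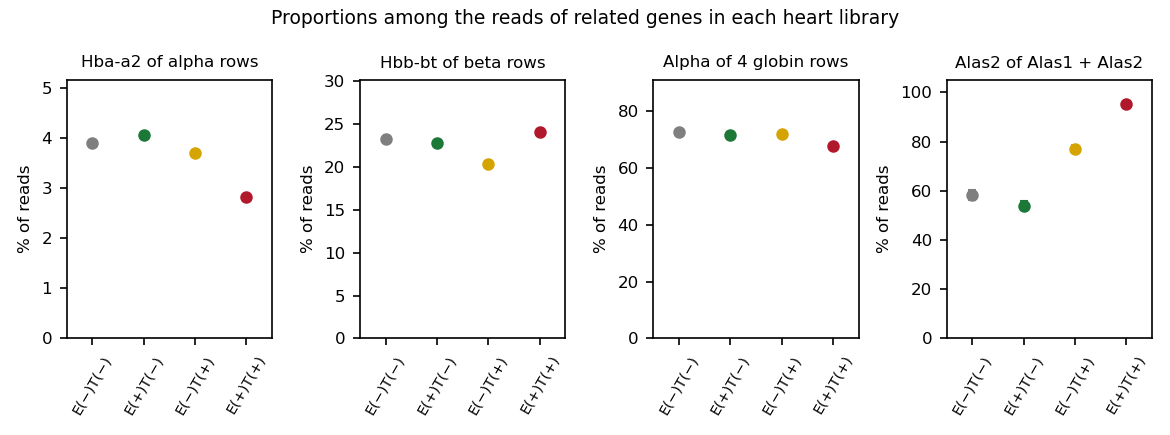
The proportions of 4 gene sets within each heart library, in percent of reads on axes that start at 0, with bars for the 95% Clopper-Pearson interval (narrower than the point for most). Hba-a2 and the α genes take their lowest share in the cancer exercise group, at 2.83% and 67.6%, Hbb-bt takes its lowest share in the cancer control group, at 20.3%, and Alas2 takes its highest share of the Alas1 and Alas2 reads in the cancer exercise group, at 95.1%.

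Alas2, the erythroid first enzyme of heme synthesis, was the heme gene closest to the globins. It had 1561 reads in the normal control group, 1768 in the normal exercise group, 2421 in the cancer control group and 13106 in the cancer exercise group, at levels of 10.81, 10.64, 11.06 and 13.81. The cancer exercise group was far above the others, and the cancer control group was the highest of the remaining 3. The log2 fold change was 2.75 (2.68 to 2.81) with exercise under tumor and −0.16 (−0.26 to −0.06) with exercise alone. Per 1000 reads of the 4 globin rows Hba-a1, Hba-a2, Hbb-bs and Hbb-bt, there were 3.41, 3.16, 4.10 and 4.01 reads of Alas2. The ratio in the cancer exercise group was close to that in the cancer control group, and both were above the ratios without tumor.

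Fech, ferrochelatase, which performs the last step, differed in the same direction and by less. It had 850, 1008, 1038 and 3338 reads, at levels of 9.93, 9.83, 9.84 and 11.83, so that the cancer exercise group again stood alone. The log2 fold change was 1.99 (1.89 to 2.10) with exercise under tumor and −0.10 (−0.23 to 0.04) with exercise alone. For each 100 reads of Alas2 there were 54.5, 57.0 and 42.9 reads of Fech in the normal control group, the normal exercise group and the cancer control group, and 25.5 in the cancer exercise group.

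Alad, the enzyme of the second step, which joins 2 molecules of aminolevulinic acid, had another pattern. Its 511 reads in the normal control group, 639 in the normal exercise group, 339 in the cancer control group and 576 in the cancer exercise group gave levels of 9.20, 9.18, 8.23 and 9.30. Here the cancer control group was the library that stood apart, and it was low. The log2 fold change was −0.97 (−1.17 to −0.77) with tumor alone, 1.07 (0.88 to 1.27) with exercise under tumor and 0.12 (−0.04 to 0.29) with tumor under exercise. The 2.10-fold difference with exercise under tumor lies just past the limit of 2, and counting error alone can take it below that limit. Scaled to the library total, or with reads drawn down to the smallest library, Alad was not past 2-fold in this comparison.

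Other genes of the pathway differed less than Alas2 and Fech with exercise under tumor. Of the 6 other enzymes, not all named here, 3 were higher by 2-fold or more and 0 were lower, against 9.39% and 10% of all genes. Cpox, coproporphyrinogen oxidase, had a log2 fold change of 1.15 (0.82 to 1.50), and Uros, uroporphyrinogen III synthase, had 1.13 (0.24 to 2.15) on only 29 reads against 16. Urod, the decarboxylase between them, had 0.57 (0.41 to 0.73) and Alas1 had 0.23 (0.08 to 0.39). Ppox, which oxidizes protoporphyrinogen, had 3 to 16 reads in a library, and with exercise under tumor no difference was detectable at this depth, with an interval of −3.11 to 1.94. With tumor under exercise it had −1.85 (−4.56 to −0.34) on 3 reads against 16.

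With tumor and no exercise, the pathway did not differ as a block. With tumor alone, 3 of the 6 other enzymes were lower by 2-fold or more and 0 were higher, against 13.1% and 14.6% of all genes. The lower ones were Uros, with a log2 fold change of −1.78 (−2.76 to −0.98), Cpox with −1.43 (−1.77 to −1.11) and Alas1 with −1.02 (−1.16 to −0.88). Cpox had 240 reads in the normal control group, 277 in the normal exercise group, 115 in the cancer control group and 207 in the cancer exercise group, so that the cancer control group was the lowest library, as it was for Alad and Uros. Alas1 instead was low in both tumor libraries, with 1119, 1509, 717 and 679 reads. With exercise alone, Ppox was past 2-fold, at 1.47 on 16 reads against 4.

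**Figure D4:**
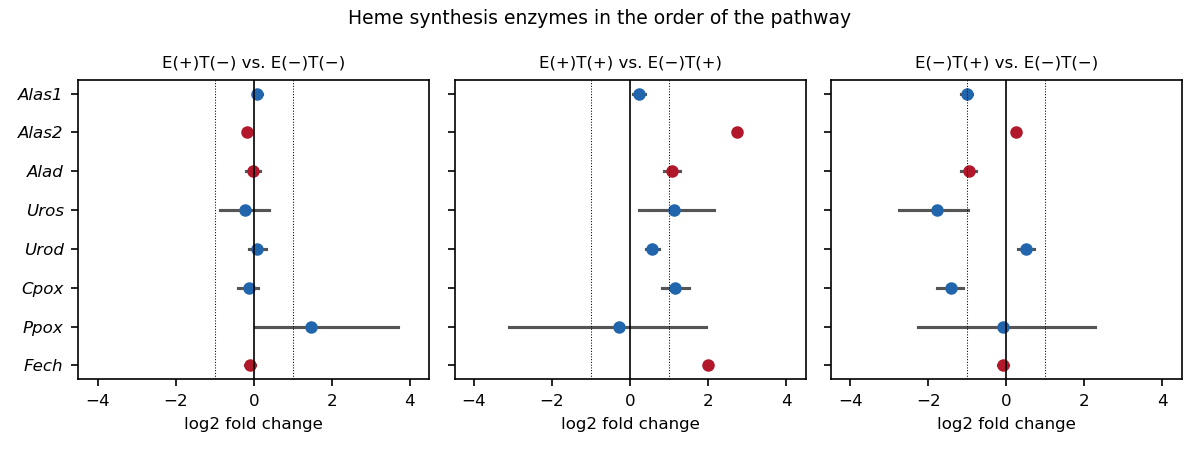
The log2 fold change of 8 enzymes of heme synthesis, from the first step at the top to ferrochelatase at the bottom, in 3 comparisons. Red points are the 3 described genes Alas2, Alad and Fech, blue points the other enzymes, horizontal bars the 95% counting intervals and dotted lines 2-fold. Alas2 at 2.75 and Fech at 1.99 lie farthest to the right with exercise under tumor, and Uros, Cpox, Alas1 and Alad lie to the left with tumor alone.

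The balance between the first-step enzymes differed among the libraries. Alas2 made up 58.2% (56.4% to 60.1%) of the reads of Alas1 and Alas2 in the normal control group, 54.0% (52.2% to 55.7%) in the normal exercise group, 77.2% (75.6% to 78.6%) in the cancer control group and 95.1% (94.7% to 95.4%) in the cancer exercise group. The intervals of these 4 libraries overlap in no pair. With tumor alone, the log2 fold change was −1.02 for Alas1 and 0.26 for Alas2, and with exercise under tumor it was 0.23 and 2.75.

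Since most of these genes moved together, the letters before their starts are shown for those RefSeq lists. Of the 9 genes 6 matched the RefSeq promoter table of GRCm38.p6, and the 250 bases before each start were searched on both strands for 4 motifs known from erythroid and general promoters. The first was the GATA motif, read as AGATAA with the first base also allowed to be T and the last also allowed to be G. The others were CACCC, the CCAAT box and the sequence TATAA. Of 32851 such windows over all genes, 26.5% hold the GATA motif, 52% CACCC, 33.8% CCAAT and 22.8% TATAA. The printed stretches are the part of the last 150 bases before the start that GENCODE places outside exons, with motif letters of either strand in capitals. They are chr11:32296342-32296488 on the plus strand for Hba-a2, chr7:103827929-103828011 and chr7:103813997-103814073 on the minus strand for Hbb-bs and Hbb-bt, chrX:150547267-150547374 on the plus strand for Alas2 and chr4:62520064-62520213 on the minus strand for the first of the Alad starts:
Hba-a2: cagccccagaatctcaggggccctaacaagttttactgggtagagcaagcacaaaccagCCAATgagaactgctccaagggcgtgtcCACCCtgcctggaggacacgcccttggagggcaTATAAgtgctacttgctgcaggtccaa
Hbb-bs: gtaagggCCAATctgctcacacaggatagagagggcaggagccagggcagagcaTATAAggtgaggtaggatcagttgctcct
Hbb-bt: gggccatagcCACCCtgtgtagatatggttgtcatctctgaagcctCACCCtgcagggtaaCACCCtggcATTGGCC
Alas2: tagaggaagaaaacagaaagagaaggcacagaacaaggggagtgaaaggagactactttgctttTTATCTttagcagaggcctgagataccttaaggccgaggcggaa
Alad: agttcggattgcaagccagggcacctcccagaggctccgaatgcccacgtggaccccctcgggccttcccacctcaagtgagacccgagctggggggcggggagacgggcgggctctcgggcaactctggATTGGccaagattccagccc

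The α-globin promoters were alike to the letter over a run of 147 bases. TATAA stood 27 bases before the start of Hba-a1, 30 before that of Hba-a2, 29 before that of Hbb-bs and 28 before that of Hbb-bt, and CCAAT stood 88, 91, 76 and 75 bases before them. The GATA motif was found once each in the windows of Hba-a1, Hba-a2, Hbb-bs and Alas2. It was not found in those of Hbb-bt and Alad, and the Alad windows held no TATAA either, which says only that these letters are not there. Matches of different motifs did not overlap in these windows, and only in the Alas2 window did matches of 1 motif, TATAA, overlap on opposite strands. These matches are a description of the reference sequence and show no binding.

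Heme synthesis also needs iron uptake, mitochondrial carriers and regulators of its enzymes, and 17 genes of this kind were measured. With exercise under tumor, 4 of the 17 were higher by 2-fold or more and 0 were lower, against 9.39% and 10% of all genes, with a median log2 fold change of 0.60. Slc25a37, or mitoferrin 1, which brings iron into the mitochondria of erythroid cells, had 446 reads in the normal control group, 450 in the normal exercise group, 684 in the cancer control group and 3813 in the cancer exercise group, and its log2 fold change was 2.79 (2.67 to 2.91). This was the pattern of the globins. Slc25a39, a mitochondrial carrier of glutathione, had 1.74 on 3220 reads against 1197. The transferrin receptor gene Tfrc had 391, 626, 95 and 282 reads, with a log2 fold change of 1.87 with exercise under tumor and −2.41 with tumor alone. Tfrc was therefore lowest in the cancer control group, as Alad was. With exercise alone, 0 of the 17 were past 2-fold, where 12.3% of all genes were. The α-globin chaperone Ahsp was not analysed here.

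Other globins separate into embryonic, minor and non-erythroid genes. Hba-x and Hbb-bh2 had 0 reads in all 4 libraries, which allows up to 3 reads in each. The embryonic genes Hbb-bh1 and Hbb-y, named after their values were seen, had 8 reads and 1 read in the cancer exercise group and 0 elsewhere. Hbq1b, a θ-globin gene of the α locus, had 13, 7, 12 and 253 reads, a log2 fold change of 4.61 with exercise under tumor. It too was high in the cancer exercise group alone. The other θ-globin row, Hbq1a, named after its values were seen, had 14, 18, 5 and 22 reads. Its log2 fold change was 2.25 with exercise under tumor and 0.53 with tumor under exercise. Myoglobin, Mb, the oxygen store of heart muscle, had a log2 fold change of 0.77 with exercise under tumor and 0.01 with exercise alone. Cytoglobin, Cygb, which is expressed in fibroblast-like cells, had −0.22 and −0.32.

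Of 9 genes that bind or break down heme and free hemoglobin, 4 were higher by 2-fold or more with tumor alone, where the globins were level, and 0 were lower, against 14.6% and 13.1% of all genes. Of these, 1 passed the minimum only through the cancer control library, and without it 3 of 8 were higher. Heme oxygenase 1, Hmox1, which opens the heme ring, had 16, 41, 313 and 85 reads, with a log2 fold change of 3.82 with tumor alone and −1.56 with exercise under tumor. It was thus highest in the cancer control group. Cd163, the macrophage receptor for hemoglobin bound to haptoglobin, had 221, 228, 847 and 308 reads and a log2 fold change of −1.15 with exercise under tumor. Haptoglobin, Hp, had 47, 63, 571 and 922 reads, and Blvrb, a biliverdin reductase abundant in red cells, had a log2 fold change of 0.95 with exercise under tumor. Unlike Hmox1 and Cd163, both were highest in the cancer exercise group.

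Other erythroid genes were measured beside the globins. Of 21 genes of the erythroid membrane and its transcription factors, 20 passed the count minimum with exercise under tumor, 13 were higher by 2-fold or more and 0 were lower, against 9.39% and 10% of all genes, with a median log2 fold change of 2.53. Of the 20, 3 passed only through the cancer exercise library, where they were high, so that the minimum itself fixed their direction. Among the other 17 there were 10 higher and 0 lower, with a median of 1.87. With exercise alone, 14 passed, with a median of −0.07. Of these, 2 were higher and 1 was lower, against 5.88% and 6.4% of all genes. However, 2 of the 14 passed only through the normal exercise library and 1 only through the normal control library. Among the remaining 11, 0 were higher and 0 were lower, with a median of −0.14. Slc4a1, the anion exchanger band 3 of the red cell membrane, had 30, 55, 47 and 1273 reads. Hemgn, hemogen, a nuclear protein of erythroid cells, had 2, 4, 10 and 165 reads. Add2, a membrane skeleton adducin, had 3, 4, 5 and 59. These 3 were high in the cancer exercise group alone, with log2 fold changes of 5.04, 4.23 and 3.63 with exercise under tumor. The transcription factor genes Gata1 and Klf1, named after their values were seen, act on the globin genes in erythroid cells. Gata1 had 0, 5, 8 and 59 reads and Klf1 had 0, 0, 8 and 39. The factor genes Tal1, Zfpm1, Lmo2 and Nfe2 of the same list were within 2-fold with exercise under tumor. Their log2 fold changes were 0.58, 0.52, 0.57 and 0.46. A part of any of these factors in the globin differences was not tested.

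Genes of late red cell maturation were counted in the same way. Of 16 genes 14 passed the count minimum with exercise under tumor, with a median log2 fold change of 2.72. Of these, 10 were higher by 2-fold or more and 0 were lower, against 9.39% and 10% of all genes. Without Trim10, which passed only through the cancer exercise library, 9 of 13 were higher and the median was 2.44. Bpgm, which makes the bisphosphoglycerate that lowers the oxygen affinity of hemoglobin, had 411, 480, 389 and 2696 reads, a log2 fold change of 3.10 (2.95 to 3.26). Trim10, a ubiquitin ligase of the erythroid line, had 100 reads against 4. Car2, carbonic anhydrase 2, had 3.40 and the tetraspanin Tspan33 had 3.18. With exercise alone, 0 of the 13 genes that passed were past 2-fold, where 12.3% of all genes were. In bulk tissue, more cells of a type and more RNA per cell cannot be told apart, and the part of blood or erythroid cells held in each heart in these differences was not tested.

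Signals that drive red cell formation were mostly read at low depth. Epo, erythropoietin, had 0 reads in all 4 libraries, and its receptor gene Epor, named after its values were seen, had 10, 4, 3 and 3 reads. Fam132b, the symbol here for erythroferrone, an erythroblast hormone that lowers hepcidin, had 7, 4, 13 and 38 reads. It was higher in the cancer exercise group, with a log2 fold change of 1.77 over the cancer control group. The hepcidin gene Hamp had 0.45 and Hamp2 had 0.32, and Kitl, the stem cell factor, had 0.34 in this comparison. Kitl was well read, with 536, 717, 235 and 240 reads, and was lower in both tumor libraries, with −1.56 (−1.80 to −1.34) with tumor alone and −1.30 with tumor under exercise. With tumor alone, 2 of the 5 genes of this list that passed the minimum were lower by 2-fold or more, where 13.1% of all genes were. Epor, 1 of these 2, passed only through the normal control library, so that the minimum itself fixed its direction. Among the 4 that passed in both libraries 1 was lower, with a median log2 fold change of −0.16.

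Markers of other blood cells did not all move with the globins. Of 10 neutrophil genes, 9 passed and all 9 of these were higher by 2-fold or more with tumor alone, where the globins were level and 14.6% of all genes were higher. Of the 9, 5 passed only through the cancer control library, and the 4 that passed in both were all higher. The summed level of the neutrophil list per 1000000 reads outside the globin genes was 19.9 in the normal control group, 14.3 in the normal exercise group, 539 in the cancer control group and 824 in the cancer exercise group. With exercise under tumor, 4 of 9 were higher by 2-fold or more and 1, Lcn2, was lower, against 9.39% and 10% of all genes. S100a8, a calprotectin subunit of neutrophils, had 40, 38, 1511 and 2537 reads. The 8 platelet genes summed to 132, 240, 440 and 326 on this scale, so that the tumor library without exercise held the most. Of the 7 that passed, 1, Ppbp, was higher by 2-fold or more with exercise under tumor, where 9.39% of all genes were. The 5 B cell genes measured summed to at most 3.66 and the 6 T cell genes to at most 8.01 in any library. By the same measure the erythroid membrane and transcription factor list summed to 493, 448, 472 and 1551.

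Markers of the heart's own other cells were also compared with exercise under tumor, where 9.39% of all genes were higher by 2-fold or more and 10% were lower. None of the 6 endothelial genes was past 2-fold. Of 7 monocyte and macrophage genes, Cd14 was higher and Cd68 and Lyz2 were lower, with log2 fold changes of 1.36, −1.65 and −1.56. Of 6 fibroblast genes 3 were lower, among them Col1a1 at −3.09 and Col1a2 at −2.50. Their part in the globin differences was not tested.

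**Figure D5:**
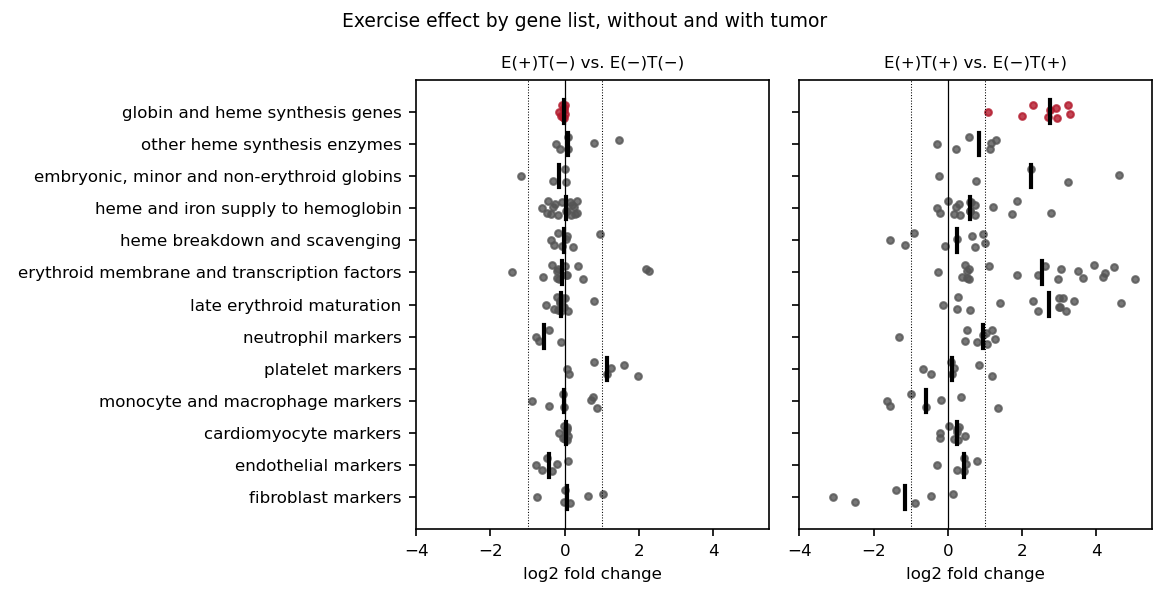
The log2 fold change of every gene that passed the count minimum, by gene list, for exercise without tumor on the left and with tumor on the right, with a black line at each median and dotted lines at 2-fold. The 9 globin and heme synthesis genes, in red, lie at a median of −0.03 on the left and 2.75 on the right, where the medians of the erythroid membrane list, 2.53, and of the late maturation list, 2.72, include genes that passed the minimum only through the cancer exercise library, while the cardiomyocyte list stays within 2-fold.

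Last, genes outside the list were ranked by how closely their levels followed the mean profile of the 6 globin rows, as the Euclidean distance between log2 levels centred over the 4 libraries. Among 7982 genes that reached 100 normalized reads in a library, the 10 nearest included Bpgm, Fam213a, Mkrn1, Rsad2, Cox6b2, Slc25a37, Specc1 and Ube2c, at distances from 0.30 to 0.57. Of the 10, 5 reached 100 normalized reads only in the cancer exercise group, among them Cox6b2, Specc1 and Ube2c, so that their likeness to a profile high in that group was in part fixed by the minimum. Alas2 stood at 0.33 from the same profile, Fech at 0.79 and Alad at 2.24, against a median of 2.53 over all these genes. Alas2 is thus as near as the nearest genes and Alad is not near. Mkrn1, a ubiquitin ligase, had 487, 591, 645 and 2817 reads. Rsad2, an interferon-induced antiviral enzyme, had 324, 313, 295 and 1794, and both were high in the cancer exercise group alone. With 4 libraries, one of which stands apart, a small distance says mainly that a gene was high in the cancer exercise group and level elsewhere.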

How the data were processed

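Heart mRNA of 4 groups of CDF1 mice was measured in 1 QuantSeq library per group. According to the methods and the submitters' processing notes, the authors used Bowtie2 for alignment to mm10, bedtools for counting per gene and a quantile method of edgeR for normalization. What they deposited is the log2 of each normalized count. Tool versions and strand settings are not given in the sources used here.

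Whole reads were recovered by inverting the quantile adjustment, with a fitted dispersion of 0.149 and a pseudocount of 1. All 93128 deposited values were given back within 0.001. The recovery was tested on simulated data. Fold changes are differences of deposited values. Of repeated symbols the row of highest mean was kept. A group of 1 library allows no test between groups.

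The members and the 15 other gene lists were chosen with earlier results of these data known. Named from the lists were the other heme enzymes and, from each other list, up to 4 genes with the largest change with exercise under tumor at a mean of at least 16 normalized reads, plus genes at 0 throughout. The 10 genes nearest to the globin profile also fell under the rule. A few genes under the rule are not reported here. Of the 9 genes, 6 had a promoter in the RefSeq table, and the sequence of Fech is not reported here. mm10 and GRCm38 are the same build. Alternatives changed the scaling, count minimum, pseudocount, depth and treatment of repeated symbols. The computations ran in Python 3.11.15 (pandas 2.3.3, numpy 2.4.6 and scipy 1.17.1), with matplotlib 3.10.9 for figures.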

Additional observations from a re-analysis of the deposited data

Results flagged for a closer look

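For 4 of the 9 genes the exercise difference had opposite signs without and with tumor, and the counting intervals of both differences left out 0. The log2 fold changes of Hba-a1 were −0.07 with exercise alone and 2.70 with exercise under tumor. Those of Hbb-bt were −0.03 and 3.24, those of Hbb-b2 were −0.04 and 3.30, and those of Alas2 were −0.16 and 2.75. The differences without tumor are small, and with 1 library per group the difference between the pairs was not tested. How many of all genes had such a pair of differences was not counted. With exercise alone, the median of all genes was 0.002 as deposited and −0.04 when scaled without genes over 1% of a library. Scaling thus moved that median by about as much as the values of Hbb-bt and Hbb-b2. Hbb-b2 is not independent of Hbb-bt.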

How the results depend on the processing

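No paired analysis was possible because each group has 1 library, and for the same reason no library could be left out of a group. Under a trimmed mean scaling, a pseudocount of 4, no count minimum or a minimum of 16, summed repeated symbols and subsampled reads, the medians and counts of the 9 genes kept their direction and size, except that Alad left the 2-fold count with exercise under tumor when reads were subsampled. The deposited median of −0.03 with exercise alone was −0.05 when scaled to reads outside the 9 genes and −0.07 without genes over 1% of a library. With exercise under tumor, the median of 2.75 was 2.16 when scaled to the library total, with 8 of 9 genes past 2-fold, and 2.68 without genes over 1%. With tumor alone, it was −0.09 as deposited and −0.24, −0.26 and −0.24 under the total, the reads outside the 9 genes and the reads without genes over 1%, each with 1 gene, Alad, past 2-fold. With tumor under exercise, the 2.99 became 2.27, 2.82 and 2.81 in this order, and 2.75 without Hbb-b1 and Hbb-b2, an alternative chosen after seeing the data. The library total moved the median of all genes too, to −0.60 with exercise under tumor, −0.74 with tumor under exercise and −0.17 with tumor alone, and relative to it the 9 genes stood 2.76 higher in the first of these, as they did with the deposited values. Of 568 single gene values, 0 turned a direction past 2-fold, 467 moved by less than their counting interval and 101 by more. The depth limits Ppox, with 3 to 16 reads, and the list genes with few reads. Since no library has a replicate, all intervals leave out the variation between animals.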
